A study of Saccharomyces cerevisiae with 4 samples.

Results

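The seripauperin and TIR cell wall genes of budding yeast were examined at the peaks of Sir2 and Hst1, a pair of paralogous NAD+-dependent histone deacetylases. The set was the named PAU (seripauperin), DAN, TIR and TIP1 genes, matched by symbol in a RefSeq table of the R64 assembly. All 31 were found, among 6002 protein-coding genes on the nuclear chromosomes, and comprised 24 PAU genes, DAN1 and DAN4, 4 TIR genes and TIP1. The data were ChIP-seq peak lists, 1 per immunoprecipitation (IP), from an HA-tagged Sir2 strain (LRY1926), an HA-tagged Hst1 strain (LRY0558) and, as the mock IP, the untagged parental strain (LRY1009). The 3 cultures grew in YPD, a rich medium with glucose, at 30 °C and were taken in early log phase, crosslinked with dimethyl adipimidate and then formaldehyde, and precipitated with the same anti-HA antibody. The Sir2 list held 159 peaks, the Hst1 list 692 and the mock IP list 3. Because every IP gave a single list, values carry no replicate error and no test between IPs was made. The lists give no read counts, so the depth is unknown.

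PAU genes form a large family of small, serine-poor cell wall proteins that sits mostly in subtelomeres. DAN, TIR and TIP1 genes encode related serine- and alanine-rich cell wall mannoproteins, many of them anchored through glycosylphosphatidylinositol. Much of the family is held low in aerated cells and is induced by lack of oxygen or by cold, through regulators such as Rox1, Mot3 and Upc2. Sir2 provides the deacetylase activity of the SIR complex, which silences chromatin at chromosome ends. Hst1 is tethered to DNA by Sum1 and represses middle sporulation genes and genes of NAD+ synthesis.

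The family was split by position. A gene was called near an end where its middle lay within 30 kb of the chromosome's end, and interior otherwise. The 19 copies near ends were all PAU genes, and the 12 interior genes were PAU2, PAU5, PAU7, PAU17, PAU23, DAN1, DAN4, TIP1 and TIR1 to TIR4. No member lay close inside the limit: the outlying near copy, PAU4, was 14.9 kb from its end, and the interior gene nearest an end, DAN4, was 30.0 kb away. All 19 near copies were transcribed toward the end, as were 55.7% of all genes near ends (210 of 377). Downstream of a PAU copy near an end was therefore also the side of the telomere, and these 2 descriptions cannot be told apart there. PAU copies are similar in sequence, and how many reads of 1 copy were placed at another was not tested.

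**Figure D1:**
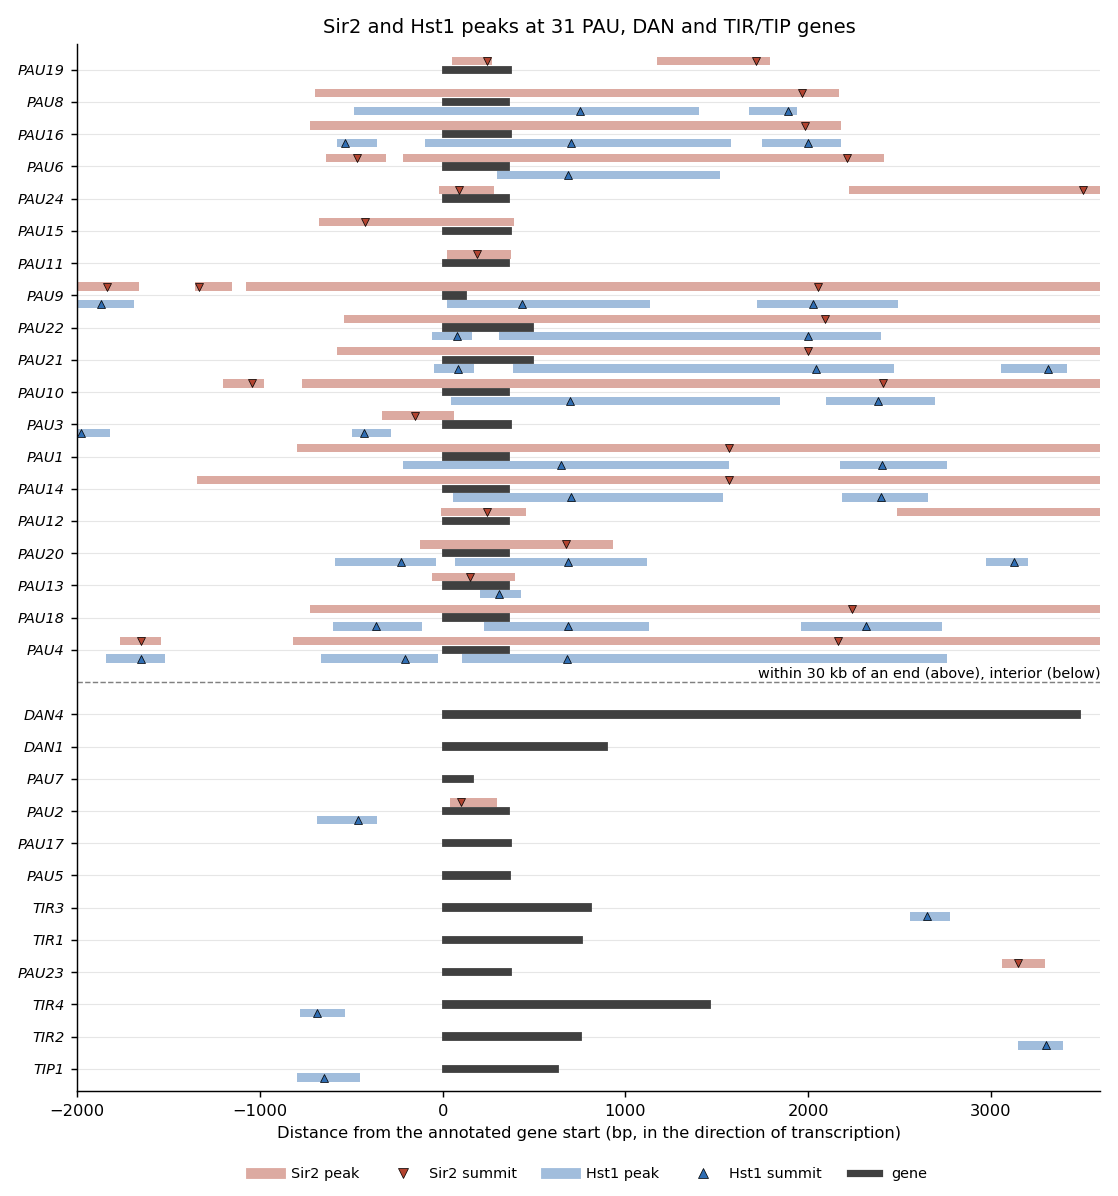
Peaks around each of the 31 genes, drawn from the gene start in the direction of transcription (bp); the 19 copies near ends are above the dashed line, sorted by distance from the end, and the 12 interior genes below it. Bars are Sir2 peaks (above each gene) and Hst1 peaks (below it), cut at the plot's edges, and triangles are summits. Hst1 summits line up just past the gene in 10 near copies, and 9 interior genes have no peak of either protein within 1 kb, as in 78.8% of all interior genes.

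Sir2 peaks lay over nearly all PAU copies near ends and over 1 interior gene. A peak covered at least 50% of the gene body in 19 of 31 members, against 1.48% of all protein-coding genes. By position these were 18 of 19 copies near ends, where 19.6% of all genes near ends were covered in this way, and 1 of 12 interior members (0.267% of all interior genes). The genes near ends were not matched to the members for distance or length. The near copies lay within 14.9 kb of an end, 14 of them within 10 kb, while the other genes ran to 30 kb. Bodies summed to 6972 bp in the 19 near copies and to 489132 bp in the 358 other genes near ends. A short body is more easily covered in full. The exception near an end was PAU3, with 64 bp of its body under a Sir2 peak, and the interior gene was PAU2. A Sir2 peak held the whole body in 15 members, against 0.983% of all genes and, since all 15 were near ends, 13.5% of all genes there.

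Summits gave a lower count than coverage, and many Sir2 peaks were long. A Sir2 summit lay in the gene or within 1 kb of it in 10 of 31 members, against 2.72% of all genes. These were 9 of 19 near copies (15.9% of all genes near ends) and 1 of 12 interior members (1.83% of all interior genes). With any part of a peak counted in the same window, 20 members had Sir2, against 3.62% of all genes, and 19 of them were near ends (28.6% of all genes near ends). The 20 members fell into 3 forms. In 12 a long peak held the gene and ran at least 500 bp past its end. In 6 a short peak had its summit inside the gene, and in 2 a peak was centred upstream. The share of all genes with the long form was not computed, so this form is not shown to be particular to the family.

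**Figure D2:**
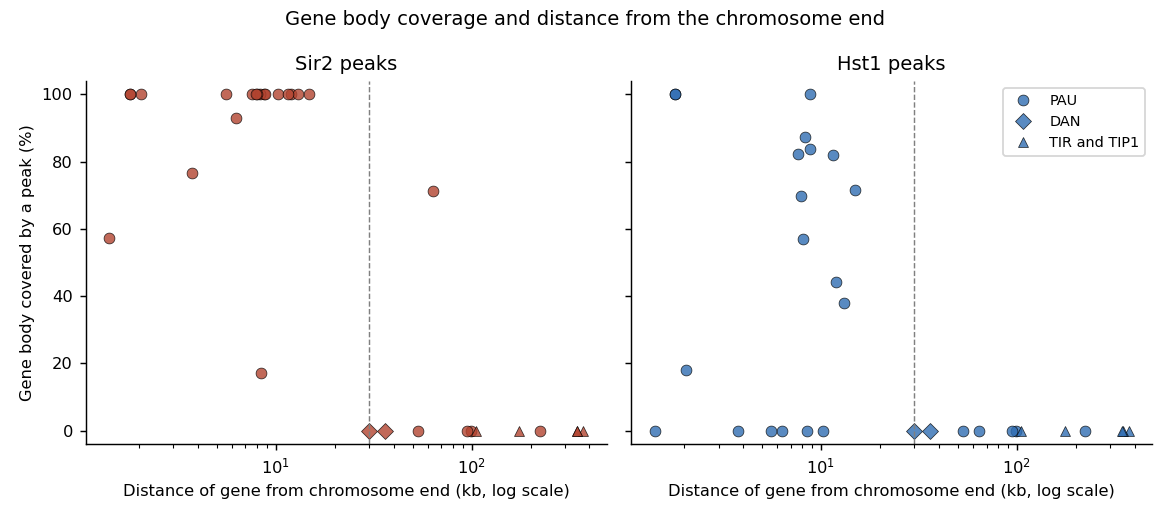
Share of each gene body covered by a Sir2 peak (left) and by an Hst1 peak (right), in percent, against the distance of the gene from its chromosome end (kb, log scale); the dashed line marks 30 kb. Sir2 covers 100% in 15 of the PAU copies near ends, and PAU2 is the only interior gene with coverage in either panel.

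The long form held PAU1, PAU4, PAU6, PAU8, PAU9, PAU10, PAU14, PAU16, PAU18, PAU20, PAU21 and PAU22. Here 1 Sir2 peak contained the gene and ran at least 500 bp past its end, with lengths of 1055 to 14172 bp (median 5914 bp). The fold enrichment, the authors' ratio of pileup to local background at the summit, was 4.20 to 15.5 in these peaks (median 7.20), against a median of 2.48 over all 159 Sir2 peaks. The fold is used here only within a list. The highest was at PAU16 on chromosome XI (sacCer3, gene 1810 to 2181), rank 3 of the list with a fold of 15.5, in a peak from base 1 to 2906. PAU1 on X (gene 8776 to 9138) came next, with a fold of 10.6 in a peak from 2470 to 9933.

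On the side away from the telomere these long peaks ended upstream of the gene start, as the definition of the form required. Their inner edge lay 122 to 1346 bp upstream of the annotated start, with a median of 726 bp. PAU8, PAU16 and PAU18 had edges at 698, 725 and 727 bp, PAU10, PAU1 and PAU4 at 769, 795 and 818 bp, and PAU22 and PAU21 at 542 and 576 bp. PAU6 and PAU9 had edges at 216 and 1075 bp. PAU20 had the shortest reach (122 bp) and PAU14 the longest (1346 bp). At PAU6 and PAU10 a separate Sir2 peak lay farther upstream, with its summit 467 and 1046 bp before the start. The summits of 11 of the 12 long peaks lay beyond 1 kb on the telomere side, 1205 to 2049 bp past the gene end (median 1611 bp). The remaining summit, at PAU20, lay 314 bp past the gene end.

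The short form was confined to the coding sequence or its edges. PAU11, PAU12, PAU13, PAU19 and PAU24 near ends, and interior PAU2, had a Sir2 summit inside the gene, 90 to 245 bp from its start. Body summits were thus present in 5 of 19 near copies (3.45% of all genes near ends) and 1 of 12 interior members (0.818% of all interior genes), and in 0.983% of all genes. The peaks were 215 to 469 bp long (median 326 bp), against a median of 381 bp over all 159 Sir2 peaks. The genes are annotated as 363 or 375 bp, so a Sir2 peak of usual length is about as long as the gene. At PAU13 on VIII the peak (11890 to 12341, fold 4.66) exceeded the gene (11923 to 12285) by 56 bp upstream and 33 bp downstream. At PAU12 on VII the peak (1080295 to 1080763, fold 3.89) exceeded it by 11 and 95 bp.

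The weaker peaks of this form stayed within or close to the gene. PAU11 had a fold of 3.75, PAU2 2.89, PAU24 2.88 and PAU19 2.38. PAU2 lies on V (63728 to 64090), 63.7 kb from the end, and its peak covered 259 of 363 bp. Neither flank of PAU2 within 1 kb held any part of a Sir2 peak. The interior copies PAU5, PAU7, PAU17 and PAU23 had no Sir2 peak in the gene or within 1 kb.

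The upstream form had its summit before the start of the gene. PAU3 on III had a Sir2 summit 153 bp before its start with a fold of 3.38, and PAU15 on IX had one at 425 bp with a fold of 3.003. PAU6 had a second, separate Sir2 peak with its summit 467 bp before the start and a fold of 2.47, beside its long peak. That summit lay nearer to another gene, 60 bp from YNR075C-A. Upstream Sir2 summits were thus present in 3 members, against 0.916% of all genes. All 3 were near ends, making 3 of 19 near copies (15.8%), against 7.43% of all genes near ends. A downstream Sir2 summit within 1 kb was present in 1 member, PAU20, against 1.13% of all genes. Among copies near ends this was 1 of 19 (5.26%), below the 7.69% of all genes near ends.

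Hst1 peaks lay downstream of PAU genes near ends at an almost fixed distance. An Hst1 summit was found in the downstream 1 kb in 10 of 31 members, against 6.35% of all genes. All 10 were among the 19 copies near ends, where 13.5% of all genes had such a summit, and the interior members had 0 of 12 (5.87% of all interior genes). The genes were PAU1, PAU4, PAU6, PAU8, PAU9, PAU10, PAU14, PAU16, PAU18 and PAU20. Each of them also had a long Sir2 peak, which left 2 of 12 genes of the long form, PAU21 and PAU22, without this Hst1 summit. At both of these an Hst1 peak still covered all 1000 bp downstream, with its summit 1551 and 1505 bp past the gene end.

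The 10 summits lay 283 to 390 bp past the annotated gene end, with a median of 324.5 bp. In detail the distance was 283 bp at PAU1, 304 bp at PAU9, 319 bp at PAU4, 322 bp at PAU20, 323 bp at PAU6 and 326 bp at PAU18. It was 329 bp at PAU16, 333 bp at PAU10, 339 bp at PAU14 and 390 bp at PAU8. The 8 middle values of this order fell within 304 to 339 bp. The genes are on different chromosomes or arms, 1.8 kb (PAU8) to 14.9 kb (PAU4) from the end. Some lie at nearly equal distances from it, such as PAU8 and PAU16 (1.806 and 1.809 kb) and PAU1 and PAU14 (8.775 and 8.792 kb). The 10 genes are copies similar in sequence, 8 of them annotated as 363 bp, and are not independent repeats of the summit distance. How many of their reads were placed at another copy was not tested. All 10 summits lay between genes, and the PAU gene was the nearest annotated gene. PAU9 is annotated as 129 bp, while the other 9 genes are 363 or 372 bp long and had their summits 645 to 752 bp from the start.

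The band from 283 to 390 bp was set after these values were seen and is given as a description. It held an Hst1 summit past the end of 1.22% of all protein-coding genes and of 4.51% of genes near ends. Among the 358 other genes near ends it held one in 7, or 1.96%. Sir2 had a summit in the same band at 1 member, PAU20, against 0.217% of all genes and 1.33% of genes near ends.

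These were also among the strongest Hst1 peaks. Their folds were 5.75 to 8.29 (median 6.73), against a median of 2.22 over all 692 Hst1 peaks, and their ranks were 4 to 47. PAU20 on XV had a fold of 8.29 (rank 4), PAU16 8.09 (rank 7), PAU10 on IV 7.70 (rank 13) and PAU4 on XII 7.17 (rank 20). PAU6 on XIV followed with 6.83, PAU8 on I with 6.63, PAU14 on IX with 6.56, PAU18 on XII with 6.38, PAU9 on II with 6.15 and PAU1 with 5.75. Of the 50 strongest Hst1 peaks, 10 were these. Of the 50 strongest Sir2 peaks, 13 reached a member within 1 kb, namely the 12 long peaks and the short peak at PAU13. Over the whole lists, 23 of 692 Hst1 peaks and 23 of 159 Sir2 peaks reached a member. How many of the strongest peaks reached other genes near ends was not counted.

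**Figure D3:**
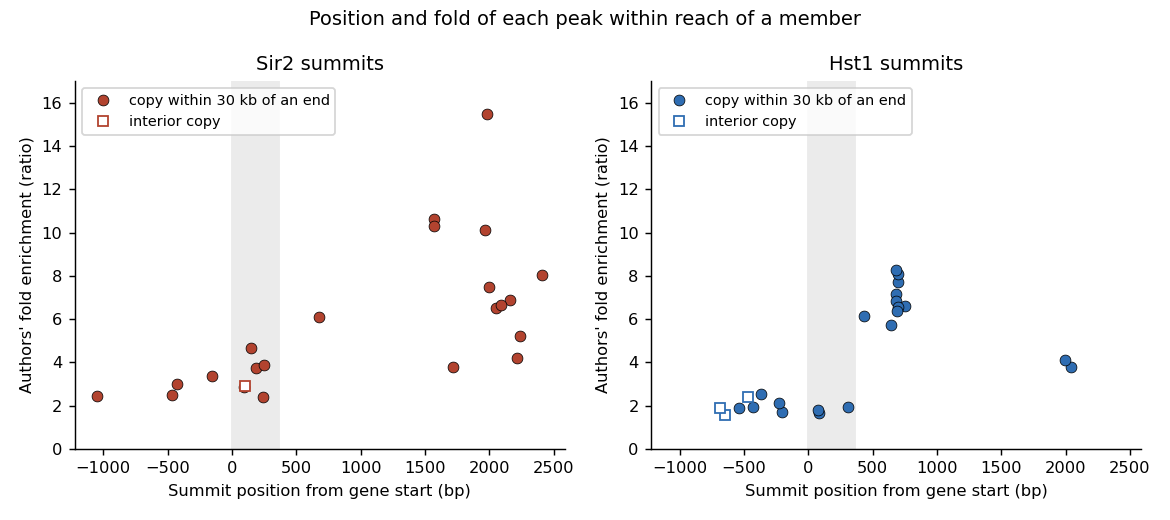
Fold enrichment (authors' ratio) of every Sir2 peak (left) and Hst1 peak (right) that reaches within 1 kb of a member, against the position of its summit from the gene start (bp); filled points are copies near ends, open squares interior copies, and the grey band is the length of a 363 bp gene. Hst1 folds above 5 form 1 cluster past the gene, and the upstream and body summits are all below 3, while Sir2 folds above 7 lie more than 1.5 kb from the start.

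The Hst1 and Sir2 summits did not coincide in most of these genes. All 10 Hst1 summits lay inside the Sir2 peak of their gene, and in 9 the Sir2 summit was 868 to 1716 bp nearer the telomere. The gap was 868 bp at PAU14, 922 bp at PAU1 and 1716 bp at PAU10. At PAU20 both summits fell within 8 bp. Of the 8 of these genes with an annotated gene farther downstream, PAU20 also had the shortest distance to it, 782 bp to YOL162W, and it had the shortest of the long Sir2 peaks (1055 bp).

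A second, weaker Hst1 summit followed farther out in several copies, given as a description without a share over all genes. It is therefore not shown to be particular to these copies. In a reach of 3 kb past the gene end, added after the data were seen, PAU10 had a second summit at 2023 bp with a fold of 3.92, PAU18 at 1956 bp with 3.70 and PAU9 at 1896 bp with 3.50. PAU1 and PAU14 had theirs at 2044 and 2038 bp, with folds of 2.47 and 2.45. PAU16 and PAU8, the outermost annotated genes of their arms, had theirs at 1627 and 1529 bp with folds of 2.37 and 1.96. PAU20 had a second summit at 2763 bp with a fold of 1.69. The Sir2 summits of PAU9, PAU10, PAU16, PAU8 and PAU18, at 1927, 2049, 1611, 1607 and 1877 bp past the gene end, lay near these positions. Those of PAU1 and PAU14 did not, at 1205 and 1207 bp, nor did that of PAU20, at 314 bp. In PAU4 and PAU6 only the first Hst1 summit was present within this reach. Each peak is listed with a single summit, and the Hst1 peak of PAU4 itself ran 2398 bp past the gene end.

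**Figure D4:**
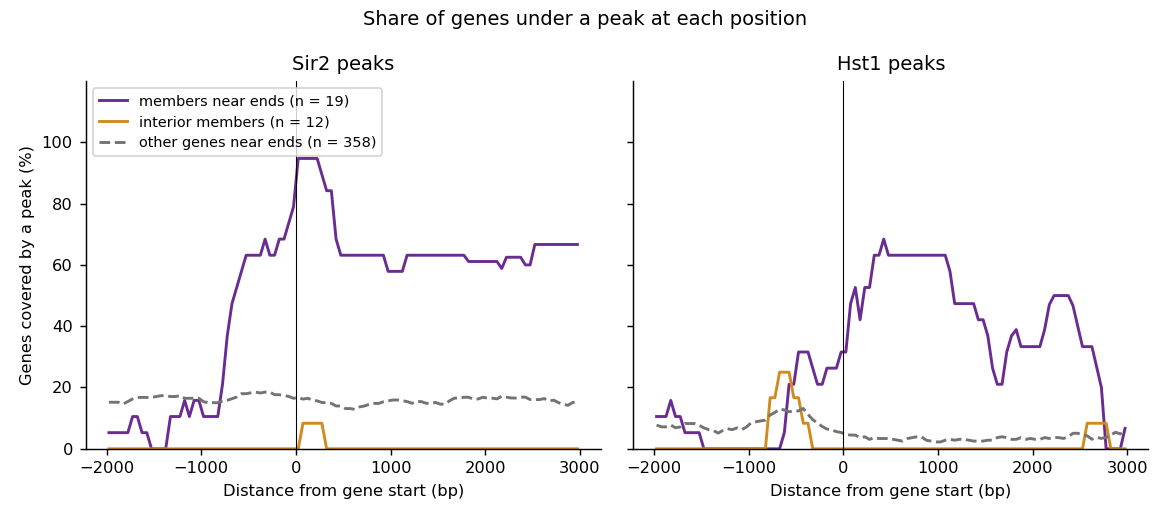
Percent of genes lying under a Sir2 peak (left) or an Hst1 peak (right) at each position from the gene start, in 50 bp steps, for the 19 members near ends, the 12 interior members and the 358 other genes near ends. Sir2 is at its highest over the body of near members (18 of 19 genes), Hst1 just past it (13 of 19 genes at 425 bp), and the other genes near ends stay below 20% throughout.

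Upstream of the family, Hst1 summits were weak. They occurred in 8 of 31 members (25.8%), against 12.9% of all genes, and in 5 of 19 near copies (26.3%), against 18.3% of all genes near ends. Their folds were 1.57 to 2.55 (median 1.91). PAU18, PAU20, PAU3, PAU16 and PAU4 near ends had folds of 2.55, 2.13, 1.93, 1.88 and 1.71. Interior PAU2 had 2.39, at 465 bp before the start. TIR4 had 1.87, at 686 bp before the start, and TIP1 had 1.57, at 648 bp. The summits at TIR4 and TIP1 lay nearer to other genes, 568 bp from YOR008C-A and 478 bp from BAP2. Upstream summits made up all Hst1 peaks listed within 1 kb of an interior member, in 3 of 12 genes (12.5% of all interior genes).

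Summits of Hst1 inside the gene were present in 3 members, against 1.93% of all genes and, since all 3 were near ends, 6.10% of all genes there. PAU21 and PAU22 had them at 85 and 80 bp from the start, with folds of 1.65 and 1.81, and PAU13 at 306 bp with 1.96. In all, an Hst1 summit lay in the gene or within 1 kb in 17 of 31 members, against 19.1% of all genes. These were 14 of 19 copies near ends (29.7% of all genes near ends) and 3 of 12 interior members (18.3% of all interior genes). At least 50% of the body was covered by Hst1 in 10 of 31 members (1.82% of all genes), all 10 of them near ends (5.31% of all genes near ends) and 0 interior (1.58% of all interior genes). The whole body was under Hst1 in 3 members, PAU1, PAU8 and PAU16, against 0.683% of all genes. All 3 were near ends, where the share was 1.59% of all genes. All 10 genes with at least 50% under Hst1 were among the 19 so covered by Sir2. Because Sir2 so covered 18 of the 19 near copies, this overlap was nearly given beforehand, and no conclusion is drawn from it.

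By bases, the windows differed between the proteins. In copies near ends, Sir2 peaks covered 49.7% of the upstream 1 kb, 91.7% of the bodies and 62.8% of the downstream 1 kb. Hst1 peaks covered 16.0%, 48.4% and 61.0% of the same windows. In the interior members Sir2 covered 0% upstream, 2.48% of the bodies and 0% downstream, and Hst1 7.68%, 0% and 0%. In other genes near ends Sir2 covered 17.0%, 20.9% and 14.1%, and Hst1 9.74%, 1.77% and 6.02%. These are sums over genes of 1 list each and carry no error.

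**Figure D5:**
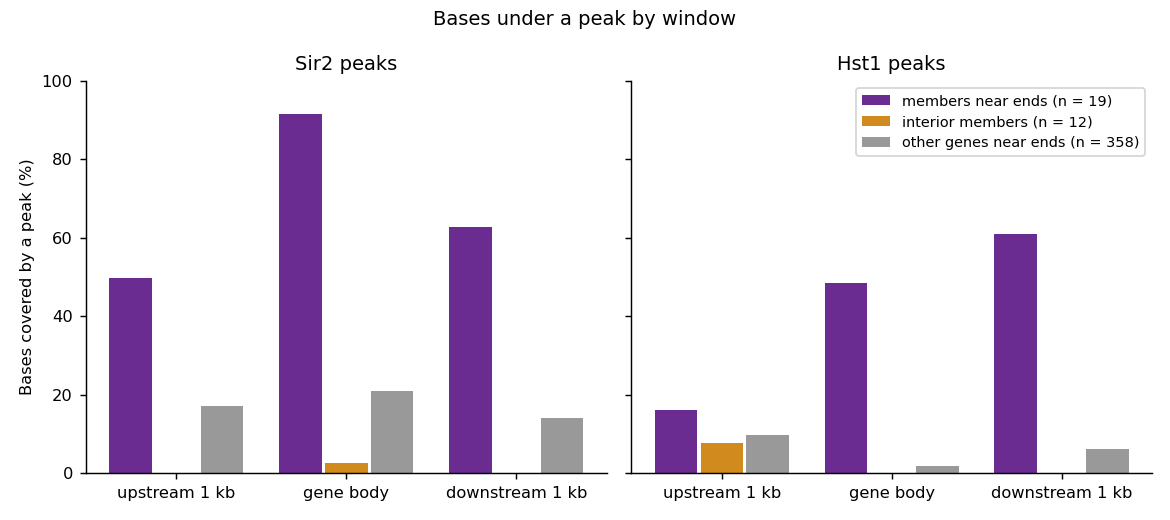
Percent of bases covered by Sir2 peaks (left) and Hst1 peaks (right) in the upstream 1 kb, the gene body and the downstream 1 kb, summed over the 19 members near ends, the 12 interior members and the 358 other genes near ends. Sir2 coverage of near members peaks over the body (91.7%), Hst1 coverage peaks downstream (61.0%), and interior members have Hst1 upstream only (7.68%).

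Some pairs of copies with like neighbours had like peaks, and other copies at like distances did not. The pairs were picked after their values were seen. PAU21 on XV and PAU22 on XVI, the members annotated as 495 bp, lie 1128 and 1129 bp from the enolase-related genes ERR1 and ERR2. Their Sir2 summits were 1999 and 2090 bp from the gene start (folds 7.50 and 6.67). Their main Hst1 summits were 2045 and 1999 bp from it (folds 3.80 and 4.10), and thus close to the Sir2 summit. PAU1 and PAU14 both lie 2645 bp from their downstream neighbour, had Sir2 summits 1567 and 1569 bp from the start (folds 10.6 and 10.3) and had both Hst1 summits described above. PAU9, PAU4 and PAU10 lie at much the same distance from their downstream neighbour (2595, 2674 and 2709 bp), but their Sir2 summits were 1927, 1800 and 2049 bp past the gene end, against 1205 and 1207 bp in PAU1 and PAU14.

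PAU12 and PAU24 lie 1952 and 1951 bp from a maltase gene, MAL12 and MAL32, and 915 and 920 bp from a COS gene, COS6 and COS2. Both had the short Sir2 form (folds 3.89 and 2.88) and no Hst1 peak within 1 kb. Among the 5 members annotated as 375 bp (PAU3, PAU15, PAU17, PAU19 and PAU23), 0 had the downstream Hst1 summit and 2 had at least 50% of the body under Sir2. Among the 13 annotated as 363 bp, 8 had the downstream Hst1 summit and 13 had that Sir2 coverage. The shares over all genes were 6.35% for the Hst1 summit and 1.48% for the Sir2 coverage. Length and position were partly joined in these genes, with 3 of 5 and 12 of 13 near ends. Among copies near ends alone, the downstream Hst1 summit was present in 0 of 3 genes of 375 bp and in 8 of 12 of 363 bp. It was present in 13.5% of all genes near ends, so 0 of 3 does not set the 375 bp genes apart. At least 50% of the body was under Sir2 in 2 of those 3 and in 12 of those 12, against 19.6% of all genes near ends.

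The 7 mannoprotein members, all interior, had few peaks, as did interior genes in general. A Sir2 summit in the gene or within 1 kb was present in 0 of 7 (1.83% of all interior genes), and an Hst1 summit in 2 of 7, TIP1 and TIR4 (28.6%, against 18.3% of all interior genes). DAN1 and DAN4, anaerobically induced neighbours on X, had no Sir2 or Hst1 peak within 1 kb. TIR1, TIR2 and TIR3 had none either. TIR2 and TIR4 are convergent neighbours 396 bp apart on XV, and the weak Hst1 summit upstream of TIR4 was the only one in the window of either. Together with PAU5, PAU7, PAU17 and PAU23, 9 of the 12 interior members had no Sir2 or Hst1 peak in the gene or within 1 kb. That share, 75.0%, was near the 78.8% of all interior genes without one. The mock IP had a summit within 1 kb of 0 of 31 members, against 0.0666% of all genes. Its nearest peak to a member lay 40.0 kb from PAU4.

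Other genes of the same response and of the cell wall were read against all genes in the same way. Of 15 other oxygen- and sterol-regulated genes, 7 had an Hst1 summit in the gene or within 1 kb (19.1% of all genes) and 0 had a Sir2 summit (2.72%). With so low a share over all genes, a count of 0 in a list of this size does not set the list apart. They included the sterol synthesis genes ERG25 (fold 2.61), ERG11 (2.21) and ERG3 (2.01), the fatty acid desaturase gene OLE1 (2.18), and AUS1, a sterol uptake transporter gene next to TIR2 (2.57 and 2.17). Of 15 other cell wall mannoprotein genes, 9 had an Hst1 summit (60.0%, against 19.1% of all genes) and 0 a Sir2 summit (2.72%), with FIT1 (2.9996) and CCW12 (2.60) the strongest. These 9 genes are not separate counts throughout. PIR3 was called only through a summit shared with PIR1 (1.74), and CWP1 and CWP2 shared a summit (1.62), though each also had another. Of 10 regulators, 4 had an Hst1 summit (40.0%, against 19.1%), namely MOT3 (1.87), SUT1 (1.76), CYC8 (1.67) and ROX1 (1.58), and 0 had a Sir2 summit (2.72%). In these 3 lists the highest Hst1 fold was that of FIT1, below each of the 10 Hst1 summits within 1 kb downstream of PAU copies near ends. It was not below all Hst1 summits farther out, such as the second ones of PAU1 (2.47) and PAU20 (1.69).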

How the data were processed

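Chromatin was immunoprecipitated with anti-HA from Sir2-HA, Hst1-HA and untagged parental cells; the genomic input was not analysed here. Per the submitters' processing notes, the authors used BWA and MACS2 on build sacCer3. Their versions and cutoffs, the control library, and whether the 2 technical replicates named in the design text were pooled are not stated by the labels or files used here. The deposited lists hold, per peak, the authors' score, their fold enrichment (a ratio), −log10 p, −log10 q and the summit position. Gene positions came from a RefSeq table of R64, the assembly behind sacCer3, and strand from the W or C of the systematic name. Right chromosome ends were set by the outermost gene or peak, which was a Sir2 peak on all 16.

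Starts were made 1-based. For each protein-coding gene, summits and bases covered were counted in the upstream 1 kb, the body and the downstream 1 kb (Python 3.11.15, pandas 2.3.3), in code checked on simulated intervals. Overlap needed 1 bp. All members were described, a gene outside the family was named only next to a summit or from a fixed list, and genes named for shared surroundings were chosen after their values were seen. Members and lists were chosen with earlier results of these data known. A planned search for promoter motifs needed sequences and was not run.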

Additional observations from a re-analysis of the deposited data

How the results depend on the processing

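Sir2 counts depended on what was counted. A Sir2 summit was within 1 kb of 10 members, while a 2 kb flank gave 20 (19 near ends) and any part of a peak within 1 kb also gave 20 (19 near ends). The Hst1 count of 17 became 11 when peaks under a −log10 q of 10 were dropped, and 11 in the strongest 50% of the list. Interior members with an Hst1 summit were 3, against 1 at that q limit, in the strongest 50% and with a 500 bp flank. With near meaning within 10 kb, which makes 17 members interior, interior members numbered 4 with Sir2 and 7 with Hst1. Hst1 held the whole body in 3 members, against 10 with at least 50%. All other alternatives stayed within 1.5 times the reported count. The downstream Hst1 count was 10 at that q limit, in the strongest 50%, with peaks within 500 bp merged and with a 500 bp flank, and 13 with a 2 kb flank. Those settings, and those for Sir2 summits in the body, were chosen after seeing the data. The mock IP count was 0 in each setting tried. No paired analysis was possible because each IP has 1 list. Depth is unknown, so a gene without a peak is below the authors' threshold, not shown to be free of the protein.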

Other observations

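The band 283 to 390 bp past the gene end also held an Hst1 summit at 7 of the 358 other genes near ends. These were MIX23 on II, GEX1 on III, YHL050C and YHR219W on VIII, YIL177C on IX, and SAM4 and YPR195C on XVI, named after their values were seen. Of genes away from ends, 56 of 5625 had such a summit (0.996%).

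Farther out on the centromere side, PAU4 had summits of both proteins 1654 bp (Sir2, fold 1.95) and 1650 bp (Hst1, fold 2.15) before its start, next to YLR460C. PAU9 had a pair at 1836 bp (Sir2, fold 2.48) and 1871 bp (Hst1, fold 1.72), at the noncoding gene YNCB0001W. On the telomere side, PAU24 and PAU12 each had a further, separate Sir2 peak beginning 1860 and 2124 bp past the gene end, with folds of 14.5 and 7.50 at summits nearest to COS2 and YRF1-3. PAU19 had a second Sir2 peak with its summit 1340 bp past the gene end and a fold of 3.79, and no Hst1 peak within 1 kb.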
